A study of Caenorhabditis elegans with 2 samples.

Results

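The regions described here are the candidate binding regions of UNC-98::GFP at small nucleolar RNA (snoRNA) genes of Caenorhabditis elegans. They were taken from the deposited list that ranks regions by agreement between the replicates. A region was a member when its summit lay within 200 bp of a snoRNA gene and not within 200 bp of a tRNA or snRNA gene. This gave 291 members of 131481 ranked regions, and no region had to be left out because of a tRNA or snRNA gene. UNC-98 is a zinc finger protein known from the attachment sites of body wall muscle and from nuclei. All samples are whole L1 larvae of strain OP85, starved after bleaching and listed with an age of 6 hours. OP85 carries wgIs85, which holds unc-98 fused to TY1, EGFP and 3xFLAG together with unc-119(+), in an unc-119(ed3) background. Chromatin sonicated to 200 to 800 bp was enriched with an antibody to GFP and sequenced in 2 replicates, which form 1 group. Since the samples hold no untagged strain, regions that depend on the tagged protein and regions that any strain would give cannot be told apart, and a whole animal mixes all its cell types.

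snoRNAs guide the chemical modification of ribosomal and other RNAs in the nucleolus. Those of the C/D box kind guide ribose methylation by fibrillarin, and those of the H/ACA box kind guide pseudouridine formation by dyskerin. A snoRNA gene can lie in an intron of a host gene, or it can be a transcription unit of its own. RNA polymerase III reads tRNA genes from internal A and B boxes, and reads U6 and some other small RNA genes from upstream elements. The annotation holds 346 snoRNA genes. Of these, 143 lie wholly in an intron of a protein-coding gene on the same strand (intronic), 124 overlap no protein-coding gene (independent) and 79 are of neither kind (other), with 41 in a same-strand exon and 38 antisense to a gene.

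Letters that recur just before the snoRNA gene at members past the reproducibility threshold defined further on are shown here; some were chosen by reading these sequences, and several strong members lack them. Each sequence is given as the 100 bases before the gene and its first 10 bases, 5′ to 3′ on the strand of the snoRNA, from the RefSeq copy of the genome (WBcel235, ce11). In the first 5, the last capitals mark GTTCGANNC, the core letters of the B box of RNA polymerase III genes. The first capitals in F11A10.9 and W03C9.9 mark a match to the A box. It was sought only as TRGYNNARNNGG, where R is A or G, Y is C or T and N is any base. Similar letters with a shorter spacing, such as tggcttagtgg in Y43F8C.22 and tggtctagtgg in M106.6, were not sought and are not marked. The intronic genes come first, then the independent ones. They are Y43F8C.22 (chrV:19643178-19643287, minus strand), M106.6 (chrII:10840217-10840326, plus), F11A10.9 (chrIV:12086609-12086718, plus), F30H5.4 (chrIII:502704-502813, plus) and W03C9.9 (chrII:11960798-11960907, plus).
Y43F8C.22: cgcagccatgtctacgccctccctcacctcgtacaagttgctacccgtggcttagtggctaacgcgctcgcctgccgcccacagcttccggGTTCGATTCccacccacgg
M106.6: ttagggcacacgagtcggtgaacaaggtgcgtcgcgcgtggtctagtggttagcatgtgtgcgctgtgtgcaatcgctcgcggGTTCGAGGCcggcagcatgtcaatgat
F11A10.9: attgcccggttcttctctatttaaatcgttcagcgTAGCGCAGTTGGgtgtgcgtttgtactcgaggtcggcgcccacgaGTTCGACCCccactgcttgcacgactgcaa
F30H5.4: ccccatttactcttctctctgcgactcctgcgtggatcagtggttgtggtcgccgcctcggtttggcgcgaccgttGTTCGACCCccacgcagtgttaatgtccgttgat
W03C9.9: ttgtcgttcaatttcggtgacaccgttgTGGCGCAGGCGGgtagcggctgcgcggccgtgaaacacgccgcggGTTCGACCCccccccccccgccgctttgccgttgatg

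The next 3 hold a different pair of elements, AACCCG followed 5 bases on by TGTC, which the capitals mark. They are the intronic genes ZK994.7 (chrV:8500479-8500588, plus strand) and C16D9.11 (chrV:8228960-8229069, minus) and the independent gene Y53F4B.47 (chrII:15025884-15025993, minus).
ZK994.7: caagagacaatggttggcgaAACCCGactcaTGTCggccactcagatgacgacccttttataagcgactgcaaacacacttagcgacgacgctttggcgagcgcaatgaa
C16D9.11: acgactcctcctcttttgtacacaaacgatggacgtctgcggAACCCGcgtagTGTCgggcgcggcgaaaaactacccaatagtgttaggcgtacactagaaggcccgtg
Y53F4B.47: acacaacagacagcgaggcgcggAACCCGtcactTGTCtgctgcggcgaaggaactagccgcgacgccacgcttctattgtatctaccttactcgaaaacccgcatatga

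The question for all members was how many recurred between the replicates. The lists give an irreproducible discovery rate (IDR), an estimate of how large a share of the regions fails to recur, and regions with an IDR of 0.01 or less are called past the threshold. Among the members, 23 of 291 were past it (7.90%, 95% Wilson interval 5.32 to 11.6%), against 0.604% of all ranked regions. All 23 were also in the deposited conservative list. The share was close in size at tRNA genes, with 36 of 483 regions (7.45%), and at snRNA genes, with 9 of 98 (9.18%). The signal, a score the authors' software gave each region, had a median of 25.2 in the members and 19.6 in all ranked regions. Among regions past the threshold the medians were 99.4 in the members and 106.6 in the whole list. Most members thus lay well below the threshold, and those past it were of the usual strength for such regions.

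The 23 regions belong to 22 snoRNA genes, since Y37E3.20 has a pair of overlapping regions. Of these genes 10 are intronic, 9 independent and 3 other. They lie on 5 of the 6 nuclear chromosomes, with 7 on I, 5 on II, 2 on III, 2 on IV and 6 on V, and there was none on X. These small counts were not set against the number of snoRNA genes on each chromosome, so they show no preference. The 2 replicates form a single group, which allows no test over samples, and members are not replicates of a condition. Shares are therefore given as descriptions, and their intervals cover the number of regions only.

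Most members past the threshold had the summit upstream of the snoRNA gene, though most upstream members were not past it. Of 127 members with the summit upstream of the snoRNA 5′ end, 21 were past it (16.5%, 11.1 to 24.0%). Of 71 with the summit inside the gene only 1 was (1.41%, 0.249 to 7.56%), and of 93 downstream of the 3′ end also 1 (1.08%, 0.190 to 5.84%). The median signal was 31.0 upstream, 22.2 inside and 20.97 downstream. The 21 upstream summits lay 14 to 180 bp before the 5′ end, with a median of 54 bp. They reached closest to the gene at Y43F8C.22 and T02E1.9 and lay farthest at W06H8.17.

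**Figure D1:**
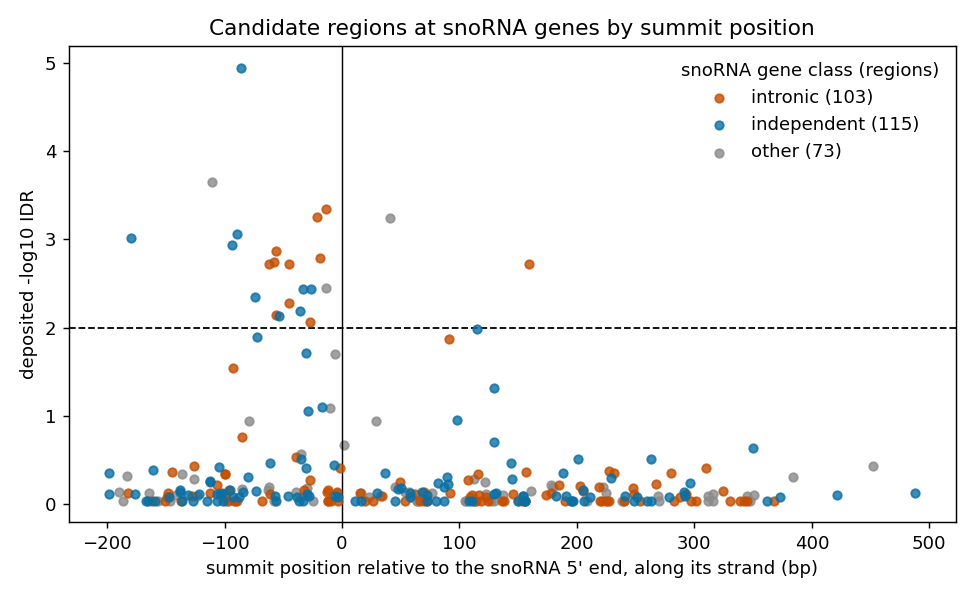
Summit position of the 291 members relative to the snoRNA 5′ end, along its strand (bp), against the deposited −log10 IDR, coloured by gene class. The dashed line is an IDR of 0.01; 21 of the 23 points above it lie to the left of 0.

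The 2 exceptions are C51F7.4 and the second region of Y37E3.20. C51F7.4 (chrV:12303482-12303797), which lies in a same-strand exon, had a signal of 154 with 79.9 in replicate 1 and 72.3 in replicate 2. Its summit lay 41 bp into the gene, and 2 snoRNA genes are within the limit there. The other is the intronic gene C51F7.3, of which the same summit lies 68 bp upstream. C51F7.3 has GTTCGANNC beginning 44 bases and an A-box match beginning 99 bases before it. By that gene the region would count as upstream too. The second Y37E3.20 region (chrI:2085038-2085353) had a signal of 38.6 and its summit 159 bp after the 5′ end. It overlaps the upstream region of the same gene and matches the same region in each replicate's list, so it is not a separate measurement.

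Intronic and independent genes were compared next. Past the threshold were 11 of 103 intronic members (10.7%, 6.07 to 18.1%) and 9 of 115 independent members (7.83%, 4.17 to 14.2%), a difference of 2.85 percentage points with a 95% interval of -5.02 to 11.1. Counted by gene, 10 of 143 intronic (6.99%) and 9 of 124 independent snoRNA genes (7.26%) had such a region. In the replicate 2 list alone (without replicate 1) the counts were 3 of 89 intronic and 4 of 95 independent members, and in the replicate 1 list alone (without replicate 2) 8 of 84 and 7 of 87. The intervals overlap widely, and no difference between the classes was detectable with this number of regions. Any member at all was found at 86 of 143 intronic genes (60.1%, 51.95 to 67.8%) and at 96 of 124 independent ones (77.4%, 69.3 to 83.9%). The median signal of the members was 22.9 for intronic and 27.4 for independent genes. Of the members at genes of neither kind, 3 of 73 were past the threshold (4.11%, 1.41 to 11.4%).

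The upstream position held in both classes. Upstream of intronic genes 10 of 43 members were past the threshold (23.3%, 13.2 to 37.7%), and upstream of independent genes 9 of 56 (16.1%, 8.69 to 27.8%). Inside the genes there were 0 of 23 for intronic and 0 of 27 for independent genes, which leaves upper limits of 14.3% and 12.5%. The intronic summits past the threshold and upstream lay 14 to 62 bp before the 5′ end (median 45 bp). The independent ones lay 26 to 180 bp before it (median 74 bp).

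**Figure D2:**
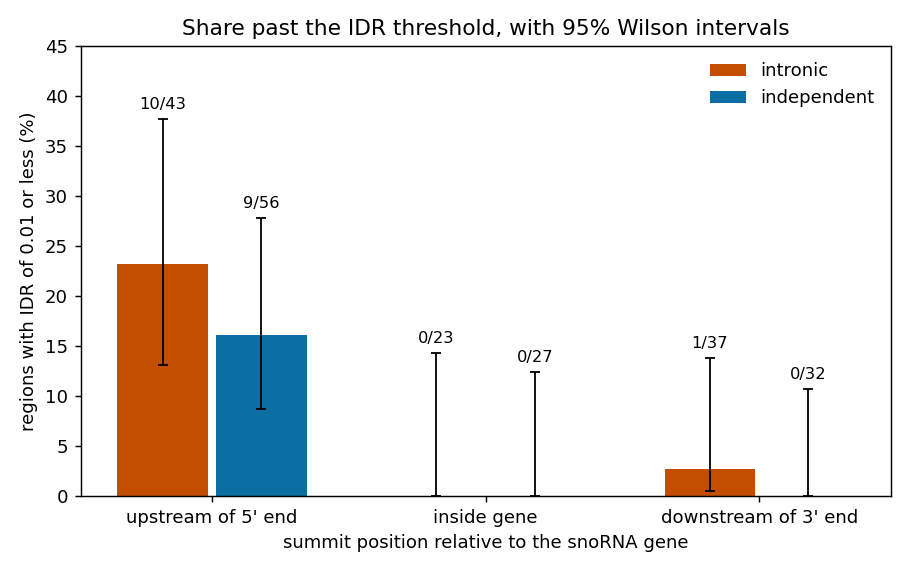
Share of members past the IDR threshold by summit position, for intronic (left bar) and independent genes (right bar), in percent. Bars are shares, lines are 95% Wilson intervals and the labels give counts; upstream the shares are 23.3% and 16.1%, and elsewhere they are at most 2.70%.

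The independent members past the threshold start with the strongest member of all. F59C6.15 (chrI:10517149-10517315) had a signal of 340.3, with 202 in replicate 1 and 131 in replicate 2, and its summit 86 bp upstream. Y53F4B.47 (chrII:15025824-15026139) had 141, with 85.5 in replicate 1 and 50.02 in replicate 2, and its summit also lay 132 bp before cmtr-1, which encodes an mRNA cap methyltransferase. F09G2.14 (chrV:7196516-7196831) had 132, with 91.5 in replicate 1 and 41.5 in replicate 2. These 3 and W06H8.17 (chrV:6227572-6227887, signal 118, with 70.6 and 54.7 in replicates 1 and 2) are the independent members above 100. The region of W06H8.17 has its summit 180 bp from the gene, the farthest of those past the threshold.

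The other 5 independent members past the threshold were weaker. F25H2.15 (chrI:10565075-10565390) had a signal of 92.5 with 49.0 in replicate 1 and 37.2 in replicate 2. ZK265.10 (chrI:8259414-8259729) had 80.5, with 34.2 and 45.9 in replicates 1 and 2. F30H5.4 (chrIII:502620-502935) had 77.2 with 43.2 and 39.9 in replicates 1 and 2. Both this gene and W03C9.9 (chrII:11960686-11961001, signal 74.1, with 39.3 and 32.9 in replicates 1 and 2) carry the letters of box C and box D near their ends. C41C4.11 (chrII:8107148-8107463) had 64.8 with 38.3 in replicate 2 and no overlapping region in the replicate 1 list. Just under the threshold, K07C10.2 (chrII:11167174-11167489) had a signal of 98.3 and a −log10 IDR of 1.98 against the 2 required. Its summit lay downstream, 115 bp after the 5′ end, and its values were 64.4 in replicate 1 and 28.7 in replicate 2.

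The intronic members past the threshold lie in 10 different hosts. ZK994.7 (chrV:8500400-8500715), in an intron of the peroxidasin gene pxn-1, had a signal of 158, with 86.4 in replicate 1 and 68.8 in replicate 2. Y43F8C.22 (chrV:19643043-19643358), in Y43F8C.7, had 149 with 90.7 and 69.8 in replicates 1 and 2. T08B2.13 (chrI:6212722-6213037) lies in fars-1, a phenylalanyl-tRNA synthetase subunit gene, and had 121 with 61.7 and 48.6. The next, C05D2.15 (chrIII:5602040-5602355) in madf-11, had 109.6 with 59.4 and 45.9. C16D9.11 (chrV:8228873-8229188) lies in rol-3, a receptor tyrosine kinase gene, and had 101 with 52.8 and 47.6. All 5 signals in the list between replicates were above 100.

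The other intronic genes had signals between 76.9 and 99.4. D1046.6 (chrIV:8927049-8927364) lies in cfim-2, which encodes a subunit of an mRNA cleavage factor, and had 99.4 with 60.6 in replicate 1 and 43.7 in replicate 2. Y37E3.20 (chrI:2084834-2085149) lies in pcyt-2.1, a gene of phosphatidylethanolamine synthesis, and had 91.8 with 67.2 and 41.0. ZK546.18 (chrII:4942406-4942721) lies in the Mediator subunit gene mdt-4 and had 84.4 with 40.5 and 35.2. F11A10.9 (chrIV:12086495-12086810), in rbm-34, had 81.9 with 41.0 and 32.6. M106.6 (chrII:10840132-10840447) lies in mix-1, which encodes a condensin subunit, and had 76.9 with 34.2 and 33.9. Genes of neither kind gave F39B2.14 (chrI:14759495-14759595, signal 216, with 129 and 75.3) and T02E1.9 (chrI:8224302-8224617, 83.1, with 49.6 and 37.9), next to C51F7.4. The summit at F39B2.14 lay 111 bp before the snoRNA but 50 bp before tmem-107, which encodes a membrane protein of the ciliary transition zone.

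The place of these regions in each replicate's own list follows in part from their choice, since an IDR between replicates favours regions ranked high in both. In the replicate 1 list the 22 members past the threshold with a value stood at the 98.6th percentile or above, and in the replicate 2 list all 23 stood at the 98.4th or above. These lists carry an IDR of their own, which cannot come from comparing the replicates and whose basis is not stated here. By it, 15 of the 23 were past 0.01 in the replicate 1 list, 8 in the replicate 2 list, 8 in both and 8 in neither. With members drawn anew from each list, 18 of 225 were past it in replicate 1 (8%, against 0.603% of that list) and 10 of 236 in replicate 2 (4.24%, against 0.415%). The signals themselves were 34.2 to 202 in replicate 1 and 32.6 to 131 in replicate 2. Across the 198 members with a value in both, Pearson's r of log2 signal was 0.441 and Spearman's rho 0.378. These points share libraries, a genome and a common floor for calling, and the correlation is over regions and not over samples. No overlapping region was listed for 51 members in replicate 1 and for 60 in replicate 2.

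**Figure D3:**
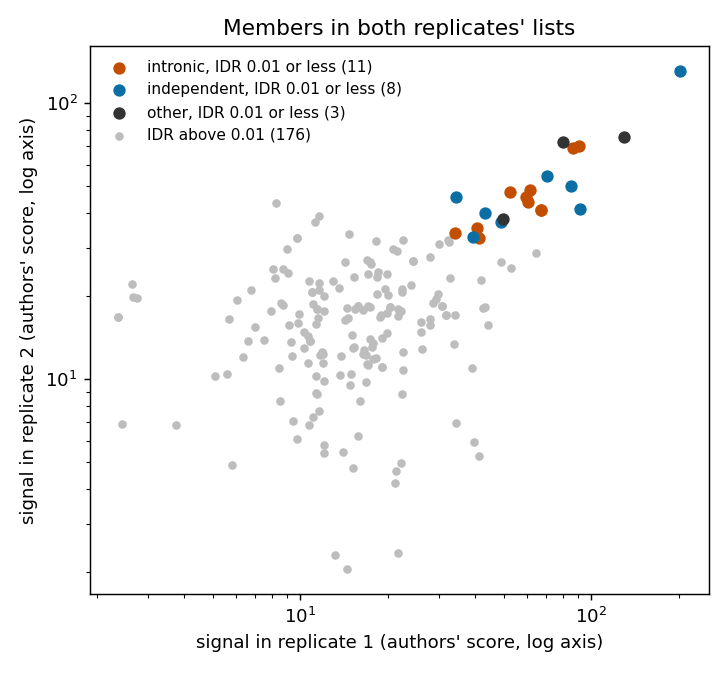
Signal of the 198 members found in both replicates' lists, replicate 1 against replicate 2 (authors' score, both axes logarithmic). Coloured points are past the IDR threshold and lie, as their choice by IDR favours, at the upper right, at 34.2 or more in replicate 1 and 32.6 or more in replicate 2; grey points are the 176 that are not.

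Host genes were examined for whether the intronic regions stood for the promoter of the host. The intronic genes have 125 hosts, of which 13 encode cytosolic ribosomal proteins. A member was found in 82 hosts and 7 of the ribosomal ones, and a member past the threshold in 10 hosts, none of them ribosomal. With 10 of 82 hosts in all, 7 ribosomal hosts are too few for this to set them apart. A promoter window was taken from 1000 bp upstream to 500 bp downstream of any 5′ end of the host. This window held 34 of the 103 intronic members and 3 of the 11 past the threshold, which are shares of similar size. The 3 are the one at cfim-2, 273 bp before a host 5′ end, and both at pcyt-2.1, 382 and 178 bp before one, which overlap each other. The other 8 lay 829 bp (Y43F8C.7) to 16044 bp (mix-1) after the nearest 5′ end of their host. At fars-1, madf-11, mdt-4 and rbm-34 this distance was 1233 to 1385 bp, at pxn-1 5669 bp and at rol-3 9378 bp.

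No host of a member past the threshold had a further region past it in its promoter (0 of 10, upper limit 27.8%). Over all hosts with a member it was 9 of 82 (11.0%, 5.88 to 19.6%), against 3.17% of all protein-coding genes, and over hosts without a member it was 5 of 43 (11.6%, 5.07 to 24.5%). The share was thus of similar size in hosts with and without a member, and 3 of the 7 ribosomal hosts with a member had such a region. The 9 are the ribosomal protein genes rpl-15, rps-12 and rps-23, ubl-1, whose product joins a ubiquitin-like part to a ribosomal protein, the elongation factor gene eef-1G, the Hsp70 chaperone gene hsp-1, the AAA ATPase gene cdc-48.1, the Mediator gene mdt-8, and ttc-7. Their promoter regions had signals of 38.3 (mdt-8) to 298 (rpl-15). In these 9 hosts no member at the snoRNA was past the threshold. At cfim-2 and pcyt-2.1 the member past the threshold itself lies in the host promoter window, so snoRNA and host promoter cannot be told apart there. The groups are small and were not tested against each other.

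Protein-coding promoters in general were near many members. A summit fell in the window of some protein-coding gene for 12 of the 23 members past the threshold (52.2%, 33.0 to 70.8%), against 479 of all 794 regions past it (60.3%). By class this was 4 of 11 intronic, 6 of 9 independent and 2 of 3 other members. For all members it was 112 of 291 (38.5%), against 31.8% of all ranked regions. At the independent genes most regions past the threshold could thus be counted for a protein-coding promoter as well, and the 2 assignments cannot be told apart there.

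Letters around the summits were counted next, on both strands, in a window of 200 bp that reaches 100 bp to each side. GTTCGANNC occurred at 9 of the 23 members past the threshold (39.1%, 22.2 to 59.2%), against 4.03% of all regions past it. Over all members it was 5.498%, against 1.77% of all ranked regions. The intronic members past the threshold had it in 5 of 11 cases and the independent ones in 3 of 9. With 1 base left free (GTTCNANNC), a form chosen after the sequences had been read, it was 11 of 23 members past the threshold (47.8%), 13.7% of members and 7.68% of all ranked regions. A match to the A box, in the form of fixed spacing given above, stood at 5 of the 23 (21.7%), against 3.53% of all regions past the threshold. TTTTTT was found at 4 of the 23 (17.4%, 6.98 to 37.1%), against 51.5% of all regions past it and 58.6% of all ranked regions.

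The other letters on the list varied with the width of the window. In the 200 bp, TGATGA, the core of box C, occurred at 26.1% of the members past the threshold and 22.3% of all members, against 10.5% of all regions past it. CTGA, the core of box D, was at 69.6% of the members past the threshold and 65.4% of all regions past it. GAGAGA was at 26.1% and CTGCGTC at 13.0% of the members past the threshold, against 29.97% and 14.1% of all regions past it. TATAAA was at 17.4%, against 13.7%, and TGATAA at 17.4%, against 9.57%. In a window of 100 bp, GAGAGA was at 4.35% of the members past the threshold, against 20.2% of all regions past it, and TGATGA at 17.4%, against 3.78%. TGATAA was then at none of the 23 members past the threshold (upper limit 14.3%), against 3.78% of all regions past it. Its counts are too small to give a direction in either window. GTTCGANNC was still at 39.1% of the members past the threshold, against 2.14%. The median GC content was 50.7% in the members past the threshold, against 42.8% in all regions past it, and was 41.3% in all members, against 36.8% in all ranked regions. GC content thus moved with these letters, and its part in their frequency was not tested.

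Counted by gene, the letters were sought on the snoRNA strand in the 120 bp before the gene and its first 10 bases. GTTCGANNC was found at 19 of the 346 genes, and 8 of these had an upstream region past the threshold (42.1%, 23.1 to 63.7%), against 13 of the 327 genes without it (3.98%, 2.34 to 6.68%). The counts with the letters were 5 of 10 for intronic and 3 of 8 for independent genes. In all 8 the letters began within 30 bases of the gene, as at 9 further genes without such a region. Each region was counted for its nearest gene only, here and in the counts by gene below. C51F7.3, an intronic gene with GTTCGANNC from 44 bases before it, therefore counts as without a region. A summit past the threshold lies 68 bp upstream of it, but was given to C51F7.4. The looser GTTCNANNC was found at 38 genes, of which 10 had an upstream region past the threshold (26.3%, 14.97 to 42.0%), against 11 of 308 without it (3.57%). In these 10 it began 8 to 27 bases before the 5′ end, so that it ends at or just before the annotated start of the snoRNA. In 4 of them, F11A10.9, W03C9.9, T08B2.13 and T02E1.9, an A-box match began 61 to 72 bases before the gene, 39 to 45 bases ahead of the B-box letters. Over all snoRNA genes, an A-box match stood at 21, and 4 of these had an upstream region past the threshold (19.0%, 7.67 to 40.0%). Without it there were 17 of 325 (5.23%, 3.29 to 8.22%), so the intervals overlap. The rule for members asks that no tRNA gene be annotated within 200 bp of the summits of the 10 genes with the looser B-box letters. No region had to be left out for it.

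The spaced pair of AACCCG and TGTC was found by reading the sequences of the members past the threshold, so its frequency there is no independent result. It stood upstream of 24 snoRNA genes, and 6 of these had an upstream region past the threshold (25%, 12 to 44.9%), against 15 of 322 without it (4.66%). The 6 are the intronic genes ZK994.7, C16D9.11 and Y37E3.20 and the independent genes F59C6.15, Y53F4B.47 and F25H2.15. The pair began 58 to 80 bases before their 5′ ends. It was at 5.84% of all members, against 0.285% of all ranked regions. A member was present at 22 of the 24 genes (91.7%, 74.2 to 97.7%), against 241 of all 346 snoRNA genes (69.7%, 64.6 to 74.3%). Most genes with the pair thus had a candidate region that did not reach the threshold, as did most snoRNA genes in general.

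Together the looser B box and the spaced pair covered most of the upstream regions past the threshold. Both were chosen after the sequences of these same regions had been read, so the shares below follow in part from that choice and are no independent result. Of the 21 genes 10 had the B-box letters, 6 the spaced pair, none both and 5 neither, which are D1046.6, F09G2.14, W06H8.17, ZK265.10 and F39B2.14. Either was present at 62 genes, and 16 of them had an upstream region past the threshold (25.8%, 16.6 to 37.9%), against 5 of 284 genes without (1.76%, 0.754 to 4.05%). Intronic genes gave 9 of 23 with either, against 1 of 120 with neither. Independent genes gave 6 of 25 with either, against 3 of 99 with neither. Only exact matches were counted, and near-matches were not sought at any gene. At D1046.6, the sole intronic gene past the threshold with neither, gatcgattc just before the gene is 1 base away from GTTCNANNC. The summit lay from 44 bases before to 7 bases after the middle of the B-box letters, with a median of 21.5 bases before it. For the spaced pair it lay from 22 bases before to 52 bases after the middle.

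**Figure D4:**
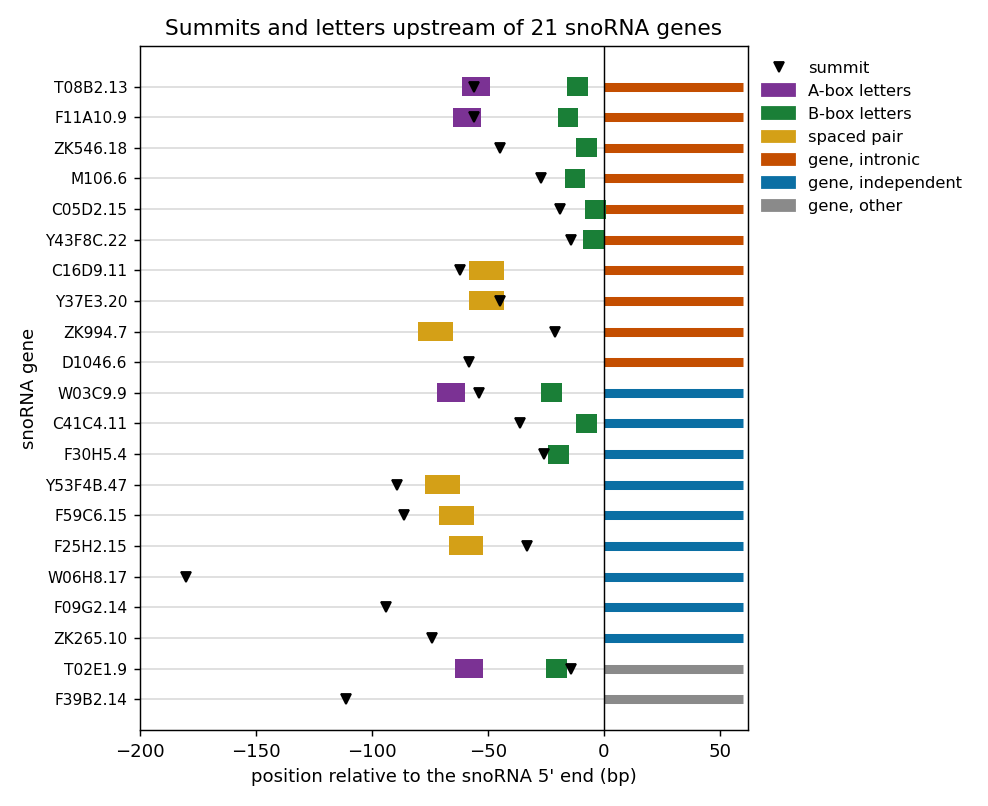
Map of the 21 snoRNA genes with an upstream region past the IDR threshold, intronic genes at the top, then independent and other genes; the x axis is the position relative to the 5′ end in bp. Triangles are summits and boxes are the matched letters; B-box letters lie 8 to 27 bp before the gene and the spaced pair 58 to 80 bp before it, and gene bodies are drawn to 60 bp at most.

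**Figure D5:**
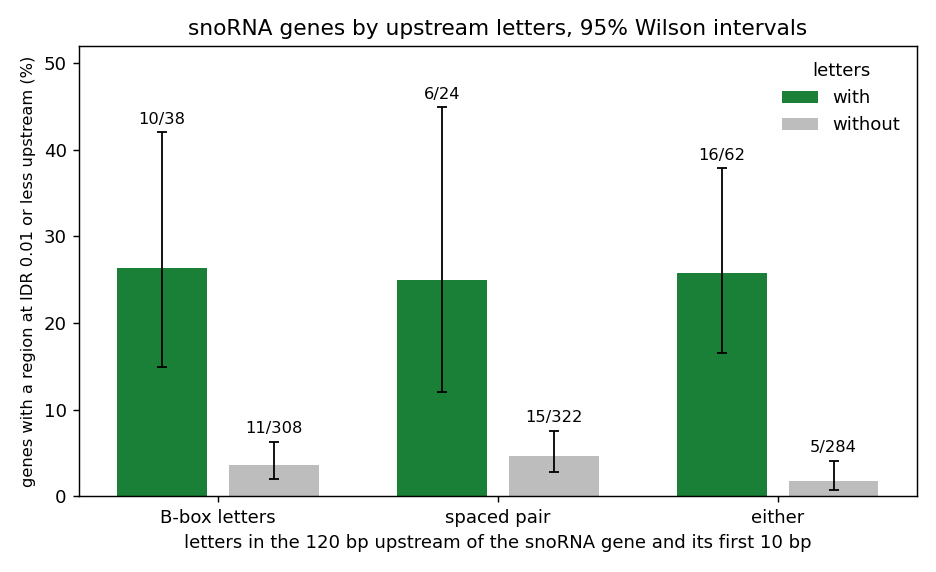
Share of snoRNA genes with an upstream region past the IDR threshold (percent), with (left bar) and without (right bar) each kind of letters, and 95% Wilson intervals. The shares are 26.3% and 3.57% for the looser B box, 25% and 4.66% for the spaced pair, and 25.8% and 1.76% for either; the looser B box and the pair were chosen after the sequences were read.

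Repeats bear on 3 of the 23 regions, which have a stretch of at least 50 bp elsewhere in the genome with 90% identity or more. F59C6.15 and F25H2.15 match each other, over 196 bp at 95.9% identity from the side of the F25H2.15 region and 77 bp at 96.1% from that of the shorter F59C6.15 region, and C05D2.15 matches 3 other places, over at most 65 bp at 90.8%. How reads that fit several places were treated is not stated in the sources used here. At the gene level, without these regions the looser B box gave 24.3% and the spaced pair 18.2%.

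The protein genes of the snoRNA particles were looked up as a list of 13, all of which matched the annotation and had a candidate region in the promoter window. A region past the threshold was present at 3 of the 13, against 3.17% of all protein-coding genes. For fib-1 (fibrillarin, the methyltransferase of C/D particles) it was chrV:15002224-15002539, with a signal of 144 and 83.6 in replicate 1 and 67.1 in replicate 2. For Y48A6B.3, listed as nhp-2, an H/ACA particle protein, it was chrIII:11007751-11008066 with 92.5, and 55.1 and 41.5 in the replicates. For nol-58, a core C/D protein, 2 regions were past the threshold, and the one with the lower IDR had a signal of 6.72, at the 10.7th percentile of the list between replicates, with replicate values of 47.0 and 33.0. nol-56, the partner of nol-58 in the particle, is also a snoRNA host with 3 members, K07C5.10, K07C5.11 and K07C5.12, whose signals were 26.6, 6.11 and 22.7. Neither these nor its promoter (38.6) had a region past the threshold.

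At the edge of the distance limit the member farthest from its gene was at C18A3.12, 199 bp away (chrII:5701767-5702082, signal 38.7). The nearest region just outside was 204 bp from W06A7.12 (chrV:14832232-14832547, signal 6.73). Neither was past the threshold.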

How the data were processed

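ChIP-seq regions of 2 replicates were used. Per the file headers and the files that describe them, the authors derived each of the 8 deposited lists from alignments to ce11 and a control file; the aligner, the peak caller and the basis of the replicates' own IDR are not stated in the sources used. The signal deposited is the authors' score per region, of unstated scale, and is compared within a list only. The authors also deposited the −log10 of the global IDR, capped at 5. Further columns of the series ranked lists name no sample (16 over both lists) and were not used. No read counts were used, so depth is unknown, and the Wilson intervals (95%) cover the number of regions only; the interval of a difference is Newcombe's.

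The list between replicates was the one in which all 728 regions of the conservative list have a −log10 IDR of at least 2 (631 in the second list). Gene positions are from Ensembl release 115 and sequences from RefSeq, both of the same build. A replicate's value for a member is that of the region in its own ranked list sharing most bases (at least 1). Named are all genes past the threshold, the next by IDR up to 10 per class, their hosts, the 2 regions at the distance limit and the particle protein genes with a region past the threshold. nol-56 was added after its values were seen. The members, lists and letters were chosen with earlier results of these data known. Copies were found with blastn (BLAST+ 2.17.0). Scripts ran in Python 3.11.15 with pandas 2.3.3, and assignment to genes was tested on simulated regions. Alternatives covered the distance limit, the list, each replicate, the IDR, the host and promoter definitions and the window for letters.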

Additional observations from a re-analysis of the deposited data

How the results depend on the processing

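Of 37 alternatives, 31 kept the value within its 95% interval (counts within 1.5 times, the ratio of medians within the replicate SD) and 6 moved it. The 3 of the 31 that kept regions near tRNA or snRNA genes change nothing by construction, as none had been left out. A limit of 500 bp gave 522 members in place of 291. The number of members was 225 to 236 with 1 replicate left out, and the share past the threshold was then 4.24% (without replicate 1) to 8% (without replicate 2), against 7.90% with both. At an IDR of 0.001 it was 2.41%, or 7 members. The difference of intronic minus independent was -0.840 to 1.48 percentage points with a replicate left out, -0.667 at an IDR of 0.001 and -0.192 with hosts on either strand, so its sign was not stable. The ratio of the median signals, intronic over independent, was 0.834, and 0.760 to 1.11 with a replicate left out. A promoter window from 500 bp upstream to 200 bp downstream held 14 intronic members in place of 34. Of members with an IDR of 0.05 or less, 83.3% were upstream, against 43.6% of all members. Further checks were chosen after seeing the data. The upstream share of members past the threshold, 91.3%, was 80.0% to 83.3% in the replicates' own lists and 90.9% in the second series list. Leaving out the regions with copies gave 24.3% for the looser B box and 18.2% for the spaced pair. No paired analysis was possible because the samples form 1 group and no result comes from a test between groups. The number of regions past the threshold, 23, limits each share by class.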

Other observations

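Outside the snoRNA genes, the spaced pair of AACCCG and TGTC had 27 matches upstream of snRNA genes and 2 upstream of tRNA genes. It also had 10 upstream of ncRNA, 8 of piRNA, 7 of protein-coding and 4 of miRNA genes. In the whole genome it had 1026 matches, which include all these and the 24 upstream of snoRNA genes. A candidate region was present at 447 of the 1026. The share of the genome that candidate regions cover was not computed, so this count has no background and shows no preference for the pair. A region past the IDR threshold covered 9 of all matches, and 6 of those were upstream of snoRNA genes. The other 3 were upstream of rpr-1, the gene of the RNA of ribonuclease P (signal 180.5), of the annotated snRNA gene sup-6 (signal 135) and of sls-2.14, an SL2 trans-spliced leader RNA gene (signal 71.8). The pair was found in the members' own sequences, so these counts are a description. By the letters of the genes themselves, 2 of 13 genes with box C and box D letters had a member past the threshold (4.33 to 42.2%). So did 5 of 58 with ACA near the 3′ end (3.74 to 18.6%) and 15 of 275 with neither (3.33 to 8.80%). Over all snoRNA genes it was 22 of 346 (6.36%), which lies within each of these intervals, so no difference by letters was detectable.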
